A study of Mus musculus with 64 samples.

Results

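CD11b-positive cells in which no other myeloid marker of the antibody panel was above its limit made up 1420 of 130442 cells (1.09%) from the colon of mice with T cell transfer colitis. CD11b, the integrin alpha M chain, is carried by neutrophils, monocytes, many macrophages and part of the dendritic cells, and also by some natural killer cells and eosinophils. Within the myeloid cells of the gut, Ly-6G is used to mark neutrophils, high Ly-6C monocytes that have recently left the blood, CD64 (an Fc gamma receptor) macrophages, and CD11c dendritic cells and part of the macrophages. CD3, the signalling part of the T cell receptor, marks T cells. A cell with CD11b and without the other markers is therefore placed by what it lacks, and the panel held no marker of eosinophils, mast cells, natural killer cells, B cells, epithelium or stroma that could place it further.

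The cells came from 9 surface protein libraries of the CD45RBhi transfer model in BALB/c SCID mice, which lack T and B lymphocytes of their own. In this model the transfer of naive T cells causes colitis. At week 0, 1 of 16735 cells was a CD3+CD4+ T cell, and at week 1 4.77% of cells were. The anti-IL-12p40 group was 1 library of week 7 from mice given an antibody against the subunit that IL-12 and IL-23 share, starting at day 10, and the untreated group was 8 libraries, 1 for each week from 0 to 7. All libraries came from the sorted EpCAM-/CD45+ immune fraction, and each pooled the colons of 3 animals. The other 55 of the 64 samples of the series, RNA libraries included, were not analysed here. No week of the untreated course was sampled by more than 1 pool, so the p-values for week measure how the order of the 8 pools relates to time and not the spread between animals.

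The values are counts of sequence tags on 11 antibodies. Each was turned into a centred log ratio (CLR): 1 was added to the count, the natural logarithm taken, and the mean of the 11 logarithms of that cell subtracted. Members were selected by CLR values in the same data: CD11b above 0.712, and CD3 at or below -0.155, Ly-6G at or below 0.982, Ly-6C at or below 3.162, CD64 at or below 0.105 and CD11c at or below 0.497. The levels of these 6 antibodies are therefore given as a description. CD90.2, CD4, KLRG1, CD127 and CD103 took no part in the selection, although they enter it through the cell mean, and were called positive above thresholds from a 2-component mixture. Depth ran from 12914066 to 28723452 antibody counts per library, over 11534 to 21229 barcodes, with a median of 576.5 to 1566 counts per kept cell. Each pair of libraries shared 29 to 108 barcodes. Of the members, 35 had a barcode that also occurred in another library, and 0 were members in both. In 3 libraries there were more barcodes than the approximately 16000 cells loaded, and doublets could not be called from antibody counts alone.

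The selection fixed that members carry CD11b, and its counts differed widely between libraries. Their median CD11b count in untreated weeks 0 to 6 was, in order, 88, 44, 60.5, 222.5, 147, 447 and 237. At week 7 it was 168 in the anti-IL-12p40 library and 120 in the untreated library. The first 3 weeks stood lowest and week 5 highest. In CD11b+Ly-6G+ cells the library medians ran from 302.5 to 770 counts, in CD11b+Ly-6C+ cells from 167 to 498 counts and in CD3-CD90.2+ cells without CD11b from 3 to 10 counts. Members had a lower median count than CD11b+Ly-6G+ cells in each library, while their median CD11b CLR at week 5 was higher, at 2.35 against 2.29. The other selecting antibodies were low on members, as the rule set: library medians were 2 to 28.5 counts for Ly-6G, against 185 to 1258 in CD11b+Ly-6G+ cells, and 2 to 17 counts for CD64, against 22 to 117 in CD11b+Ly-6C+ cells. Ly-6C stood at 75 to 324 counts on members, against 1333 to 4759 in CD11b+Ly-6C+ cells. CD11c stood at 6 to 31 counts on members, against 48 to 247.5 in CD11c+CD64- cells and 12 to 53 in CD11b+Ly-6G+ cells. CD3 stood at 1 to 23 counts on members, against 36 to 70 counts on CD3+CD4+ T cells in the 8 libraries that held enough of them.

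**Figure D1:**
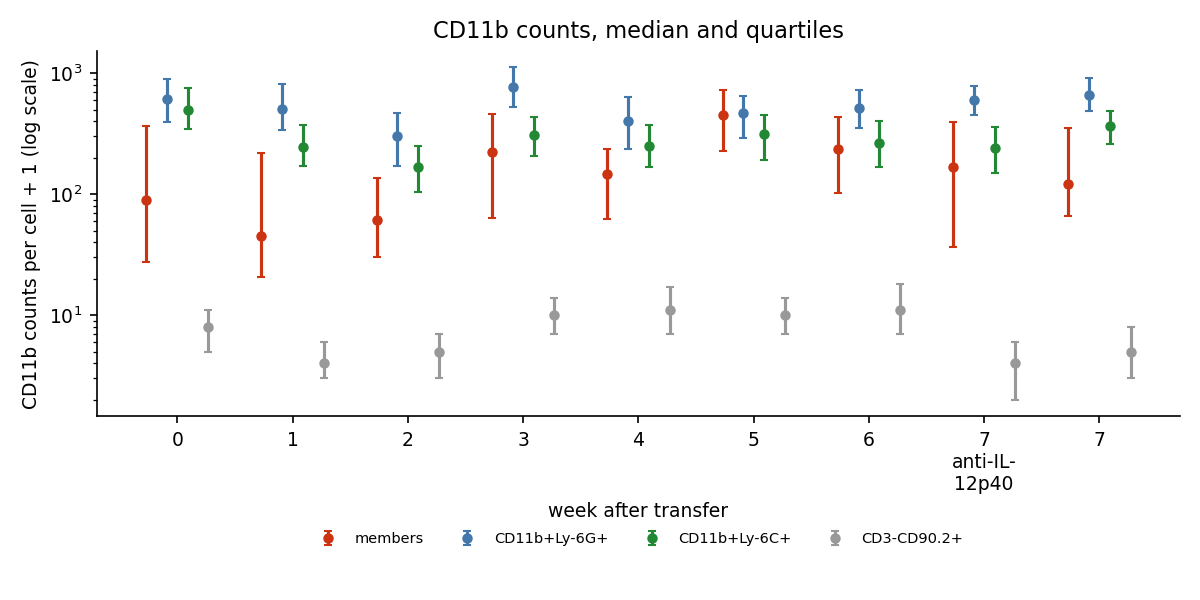
CD11b counts per cell plus 1 on a log scale (vertical axis) by week (horizontal axis; week 7 of anti-IL-12p40 stands left of untreated week 7) in members and 3 comparison phenotypes; points are medians and bars reach the quartiles. Medians of members lie at 44 to 447 counts, between the CD3-CD90.2+ cells (3 to 10) and the CD11b+Ly-6G+ cells (302.5 to 770).

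The members did not form a separate peak in every library. Of the 1420 members, 259 (18.2%) had a CD11b CLR within 0.25 of the limit, and 542 cells that met the other 5 limits lay within 0.25 below it. The share of members close to the CD11b limit was highest at week 0, at 27.9%, and lowest at week 5, at 4.28%. Near the limit of CD11c there were 273 members inside and 249 cells just outside, near that of CD3 201 inside and 226 outside, and near that of CD64 197 inside and 292 outside. For Ly-6C it was 124 inside and 96 outside, and for Ly-6G 67 inside and 78 outside. These totals hide differences between libraries. The share of members close to the CD3 limit was 2.88%, 6.07%, 14.6%, 22.6%, 28.4%, 21.9%, 18.6% and 31.6% in untreated weeks 0 to 7, in order. In the treated week 7 library it was 19.2%. For Ly-6C the share close to the limit was highest at week 2, at 30.8% (61 of 198 members), and next highest at week 4, at 13.6%. The place of the Ly-6C limit is poorly fixed by the data, since the 2 components of Ly-6C were not separable (Ashman's D, their distance in units of spread, was 1.75, with 2 taken as the minimum).

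**Figure D2:**
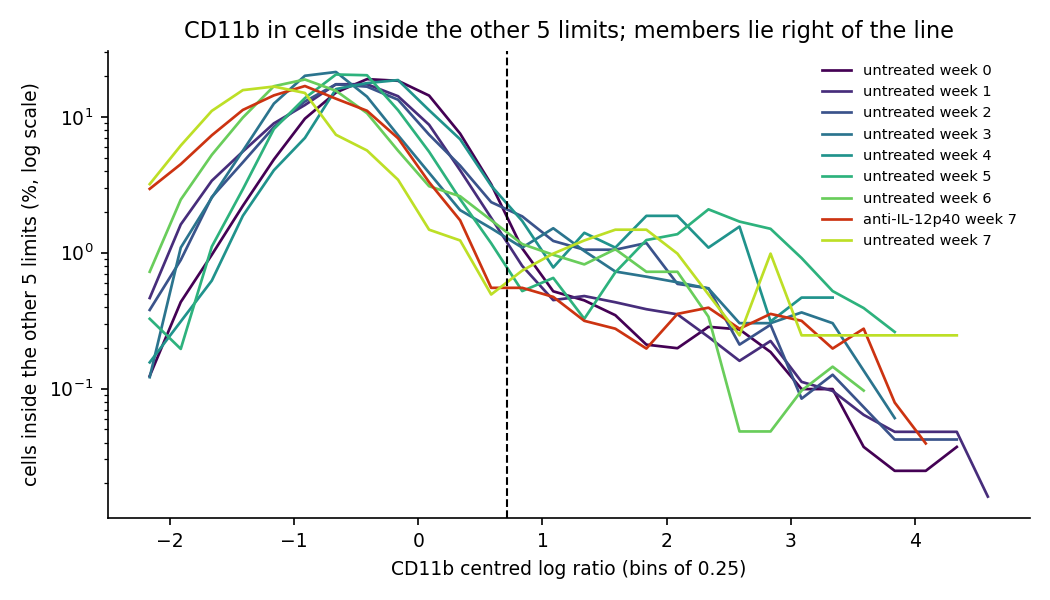
CD11b CLR (horizontal axis, bins of 0.25) of the cells inside the other 5 limits, as a percentage of those cells in each library on a log scale (vertical axis); the dashed line is the CD11b limit of 0.712 and members lie to its right. The untreated week 0 curve falls through the limit without a dip, and 27.9% of its members lie within 0.25 of it, while the week 5 curve has a second rise to the right of it and 4.28% of members that close.

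Membership also depended on depth and scaling. When every cell was thinned to 242 counts and the thresholds were refitted, 592 cells were members, and 317 of the 1228 original members deep enough to be thinned were among them. With thresholds fitted in each library by itself, 698 cells were members and 482 of them were original members. Scaling counts to each library's median total, with no CLR, left 406 members, 154 of them original. Selection with CD11b raised by 0.5 and the upper limits lowered by 0.25 left 496, and widening every limit by 0.25 gave 3377. The cells described here are thus those of a single setting of the gate.

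As a share of all cells, members were most frequent at weeks 0 and 1 and least frequent at untreated week 7. In untreated weeks 0 to 7, in order, they made up 1.86% (312 cells), 1.96% (247), 0.944% (198), 0.988% (124), 0.452% (81), 1.35% (187), 1.13% (129) and 0.319% (38) of cells. Weeks 0 and 1 lay above all later weeks, and weeks 5 and 6 lay above weeks 2 to 4. Spearman's rank correlation with week was -0.60 (two-sided exact permutation p = 0.132, Benjamini-Hochberg adjusted p = 0.165 over the 10 phenotypes of the whole table; 8 libraries), and Pearson's r was -0.71 (exact p = 0.0525, adjusted p = 0.0750). The trend did not pass, in a table where 50% of the 10 phenotypes did. Leaving out both end weeks, 0 and 7, brought the rank correlation to -0.09 (exact permutation p = 0.919).

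T cells filled a growing share of these libraries, so the share was also taken among CD3- cells, where the order of the weeks differed. In untreated weeks 0 to 7 it was, in order, 1.88%, 2.11%, 1.61%, 2.57%, 1.01%, 4.74%, 2.56% and 2.67%. Week 5 stood highest and week 4 lowest, with exact 95% intervals for counting error of 4.102% to 5.46% and 0.805% to 1.26%. The rank correlation with week was 0.55 (exact permutation p = 0.171, adjusted p = 0.342 over 8 phenotypes) and Pearson's r was 0.41 (exact p = 0.323, adjusted p = 0.645). Leaving out both end weeks brought it to 0.37 (exact permutation p = 0.497). The direction turned with counts scaled to each library's median total (-0.79, adjusted exact permutation p = 0.0619) and with the wider gate (-0.45, adjusted exact permutation p = 0.535). Under that scaling untreated weeks 0 to 7 held 133, 240, 24, 0, 0, 1, 0 and 0 members, in order. The -0.79 was thus calculated on a gate that was nearly empty after week 2, and the cause of the turn was not tested. Among these 8 phenotypes 12.5% passed, and members did not. Since tissue was dissociated and sorted, fewer members and more of the other cells cannot be told apart in any of these shares.

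At week 7 the anti-IL-12p40 library held a larger share of members than the untreated library by 2 of 3 denominators. Of all cells, 0.836% were members in the treated library (104 of 12437; exact 95% interval 0.684% to 1.01%) and 0.319% in the untreated library (38 of 11907; 0.226% to 0.438%), a ratio of 2.62. With thresholds fitted in each library by itself the direction turned, with 3 treated and 10 untreated members and a ratio of 0.287. The treated value lay inside the range of untreated weeks 5 to 7 (0.319% to 1.35%), so the difference was not called large; to be called large, it had to be 1.5-fold or more in either direction, have separate intervals and lie outside that range, which 40% of the 10 phenotypes met. Of CD3- cells, 2.82% were members in the treated library and 2.67% in the untreated library (ratio 1.05, with overlapping intervals), and 50% of the 8 phenotypes were called large there. Of CD11b+ cells, 16.1% were members in the treated library (104 of 647) and 3.57% in the untreated library (38 of 1065), a ratio of 4.51 that was called large, against 3.57% to 7.78% in untreated weeks 5 to 7. That denominator includes the CD11b+Ly-6G+ cells, which were 0.490% of all treated cells and 5.42% of all untreated cells. Each arm is 1 library, so no test was made and intervals cover counting error only.

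**Figure D3:**
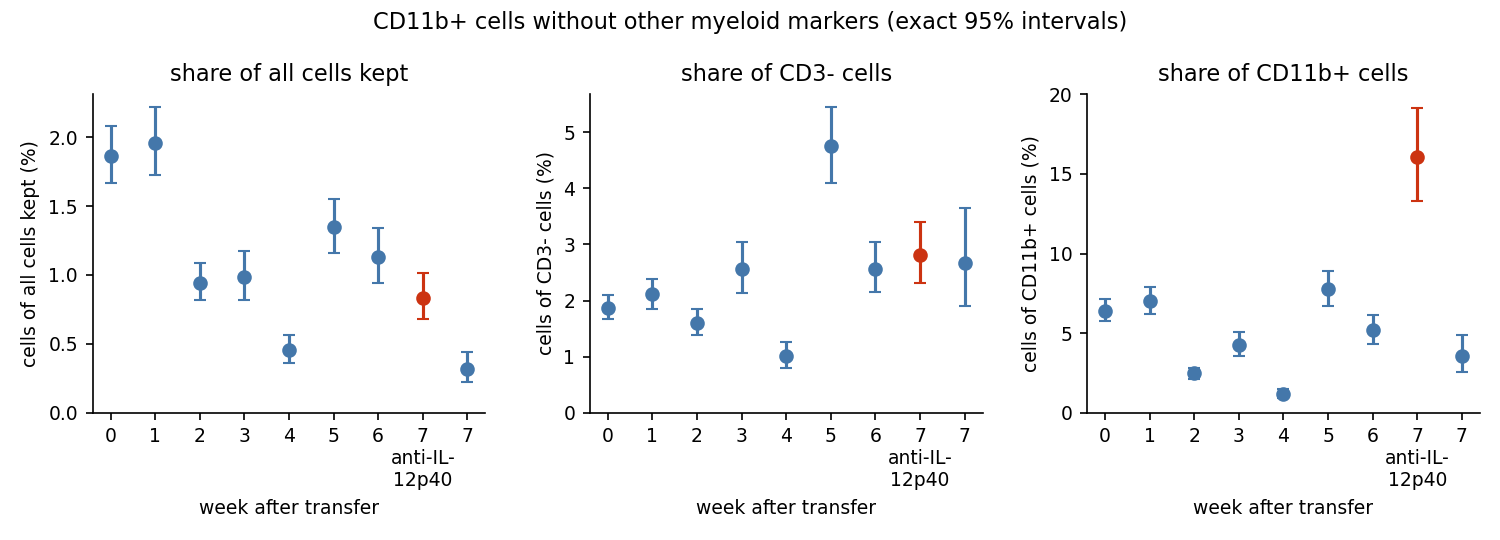
Members as a percentage of all cells, of CD3- cells and of CD11b+ cells (vertical axes) in each library by week (horizontal axes), with exact 95% intervals for counting error; red is the anti-IL-12p40 library and blue the untreated libraries. The treated library stands at 0.836% of all cells, inside the untreated weeks 5 to 7, and at 16.1% of CD11b+ cells, above every untreated library.

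Among the antibodies that the selection did not use, CD90.2 was the most frequent on members in 8 of 9 libraries, with CD4 ahead of it at week 5. CD90.2 (Thy-1) is a surface protein of T cells and innate lymphoid cells. In untreated weeks 0 to 6 it passed its threshold on 78.5%, 69.2%, 86.9%, 44.4%, 37.0%, 40.1% and 74.4% of members, in order, and at week 7 on 61.5% in the anti-IL-12p40 library and 44.7% in the untreated library. These shares were high early and again at week 6, and lower from weeks 3 to 5. CD90.2 was higher on members than on CD11b+Ly-6G+ cells in 8 of 8 libraries with at least 50 of each, by 37.9 ± 12.8 percentage points (SD; exact sign-flip permutation p = 0.00781, the smallest 8 libraries allow; adjusted p = 0.0107 over 15 comparisons). It was higher than on CD11b+Ly-6C+ cells by 50.5 ± 13.7 points in 8 of 8 libraries (exact permutation, adjusted p = 0.0107) and than on CD11c+CD64- cells by 24.7 ± 15.7 points in 7 of 8 (adjusted exact p = 0.0180). Of the 15 comparisons of 5 antibodies with 3 phenotypes, 13 were called (86.7%), so a single call in this family is common. The CD90.2 differences also held on the plain ln(count + 1) scale, at 0.68, 1.24 and 0.92 for the CD11b+Ly-6G+, CD11b+Ly-6C+ and CD11c+CD64- comparisons, and in a CLR over the 5 unused antibodies alone, at 0.55, 0.72 and 0.54.

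KLRG1, an inhibitory lectin-like receptor of natural killer cells, activated T cells and group 2 innate lymphoid cells, was positive on 40.1%, 42.9%, 60.6%, 41.9%, 16.0%, 11.8% and 8.53% of members in untreated weeks 0 to 6, in order, and at week 7 on 29.8% with anti-IL-12p40 and 21.1% without. Each of weeks 0 to 3 lay above each of weeks 4 to 6. The rank correlation over the 7 untreated libraries with at least 50 members was -0.75 (exact permutation p = 0.0663, adjusted p = 0.154). A fall of KLRG1 was not particular to members. Its rank correlation was -0.88 on CD11b+Ly-6G+ cells, -0.76 on CD3-CD90.2+ cells and -0.38 on CD11c+CD64- cells, none passing after adjustment. On CD11b+Ly-6G+ cells its share was 14.4% at week 0 and 0.774% at week 6. KLRG1 was higher on members than on CD11b+Ly-6G+ cells in 8 of 8 libraries, by 25.3 ± 15.2 points, than on CD11b+Ly-6C+ cells by 27.4 ± 16.1 points and than on CD11c+CD64- cells by 18.8 ± 12.01 points (adjusted exact permutation p = 0.0107 for each). These differences held on the ln(count + 1) scale and were no longer called in the CLR over the 5 unused antibodies, where they were 0.34, 0.17 and 0.44. Median KLRG1 counts on members were low, at 2 to 13.5 by library.

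CD4, the co-receptor of helper T cells, which mouse macrophages can also carry, was on 17.0%, 8.50%, 26.8%, 21.8%, 32.1%, 64.7% and 55.8% of members in untreated weeks 0 to 6, in order. At week 7 it was on 19.2% in the anti-IL-12p40 library and 34.2% in the untreated library. Weeks 5 and 6 stood above all others. The rank correlation with week was 0.89 over 7 libraries (exact permutation p = 0.0123) and did not pass after adjustment over the 58 antibody and phenotype pairs of the whole table (adjusted p = 0.0743), while Pearson's r of 0.88 did (adjusted exact p = 0.0489). A rise of CD4 was not particular to members. Its rank correlation was 0.98 on CD3-CD90.2+ cells (adjusted exact permutation p = 0.0230), the 1 pair of the 58 that passed. On CD11c+CD64- cells it was 0.88 (adjusted exact permutation p = 0.0700). It was -0.31 on CD11b+Ly-6C+CD64+ cells and -0.38 on CD64+Ly-6C- cells. Neutrophils are not known to carry CD4, yet its share on CD11b+Ly-6G+ cells was lowest in week 0, at 4.80%, and reached 36.7% in week 5 and 38.0% in untreated week 7, with a rank correlation of 0.83 (exact permutation p = 0.0154, adjusted p = 0.0743; 8 libraries). The part of such background in the member values was not tested. Members had more CD4-positive cells than CD11b+Ly-6G+ cells in 7 of 8 libraries, by 16.1 ± 11.9 points (adjusted exact permutation p = 0.0180), but on the ln(count + 1) scale the difference turned to -0.082 and in the CLR over the unused antibodies to -0.21, neither of them called. Against CD11b+Ly-6C+ cells CD4 was 23.8 ± 18.7 points higher in 8 of 8 libraries (adjusted exact permutation p = 0.0107). That difference was 0.57 on the ln(count + 1) scale, and 0.047 and no longer called in the CLR over the unused antibodies. Against CD11c+CD64- cells it was 16.9 ± 13.2 points higher in 8 of 8 libraries (adjusted exact permutation p = 0.0107), and held on both other scales.

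CD127, the interleukin-7 receptor alpha chain of innate lymphoid and resting T cells, was not separable (Ashman's D 1.56), so its shares depend closely on where the threshold fell. They were 67.3%, 58.7%, 21.2%, 37.1%, 16.0%, 19.3% and 14.0% in untreated weeks 0 to 6, in order, and at week 7 39.4% with anti-IL-12p40 and 34.2% without. The first 2 weeks stood above the rest. The rank correlation was -0.93 (exact permutation p = 0.00675, adjusted p = 0.0700; Pearson's r -0.87, adjusted exact p = 0.0491). With thresholds fitted per library it was 0.37 over 6 libraries, the opposite direction. Median CD127 counts on members were 2 to 13.5, against 2 to 18 on CD11b+Ly-6G+ cells.

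CD103, the integrin alpha E chain of mucosal T cells and of a large part of gut dendritic cells, was the antibody by which members stood below a comparison phenotype. It was on 5.56% to 19.8% of members in the 8 libraries with at least 50, against 24.4% to 63.4% of CD11c+CD64- cells. Members were lower in 8 of 8 libraries, by 38.3 ± 13.1 points (mean difference -38.3; exact permutation p = 0.00781, adjusted p = 0.0107), and on both other scales. Against CD11b+Ly-6G+ cells, where CD103 was on 1.39% to 17.6%, the difference of 4.28 ± 7.60 points did not pass (adjusted exact p = 0.193). CD127 did not differ from CD11c+CD64- cells beyond the spread, at 4.45 ± 13.3 points (adjusted exact p = 0.469), and was called higher on the ln(count + 1) scale (0.42). For CD127 the called differences of 24.1 points against CD11b+Ly-6G+ and 24.1 points against CD11b+Ly-6C+ cells did not hold: the first turned to -0.094 on the ln(count + 1) scale and -0.23 in the CLR over the unused antibodies, and the second was 0.22 and not called on the ln(count + 1) scale and turned to -0.30 in that CLR. The 7.76 points of CD103 against CD11b+Ly-6C+ cells turned to -0.12 and -0.64 on these scales, and the 4.28 points against CD11b+Ly-6G+ cells to -0.32 and -0.45.

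**Figure D4:**
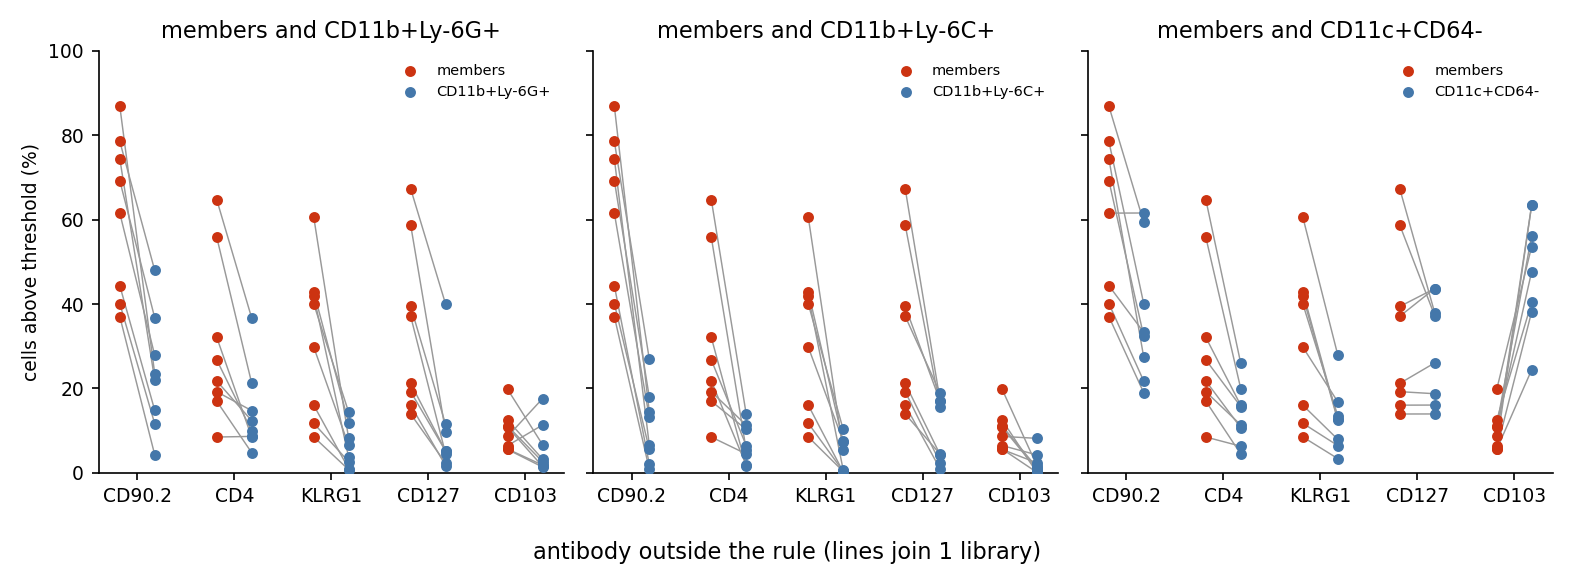
Percentage of cells above threshold (vertical axis) for the 5 antibodies that the selection did not use (horizontal axis) in members (red) and in each of 3 comparison phenotypes (blue); each point is 1 of 8 libraries and lines join values of the same library. CD90.2 and KLRG1 are higher on members than on both CD11b+ phenotypes in every library, and CD103 is lower on members (5.56% to 19.8%) than on CD11c+CD64- cells (24.4% to 63.4%) in every library.

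Of the 5 unused antibodies, 0 had a trend with week on members that passed the adjusted exact permutation test, in a table where 1.72% of the 58 pairs passed; 2 of the 5, CD4 and CD127, had an unadjusted p below 0.05, and both passed with Pearson's r. Between treated and untreated week 7, 0 of the 5 were called large (0% of 5). With 38 untreated members the intervals were wide: that of CD4 ran from 12.2% to 28.1% in the treated library and from 19.6% to 51.4% in the untreated library.

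The members were of several kinds by CD90.2 and CD4. CD90.2+CD4- cells were the most common, at 629 (44.3%), followed by 385 with neither protein (27.1%), 296 with both (20.8%) and 110 with CD4 alone (7.75%). CD90.2+CD4- cells made up 64.4% of members at week 0, 63.6% at week 1 and 62.1% at week 2, and 8.02% at week 5. Cells with both proteins were 5.67% of members at week 1 and 55.0% at week 6. Cells with CD4 alone were concentrated at week 5, which held 61 of the 110. Here alone means CD90.2 at or below its CLR threshold, not absent. At week 5 their median CD90.2 count was 160, against 27 on members with neither protein and 212 on CD90.2+CD4- members. At week 3 it was 282, against 60.5 and 459. Cells with neither were between 11.1% at week 2 and 51.9% at week 4. At week 7 the treated library had 48 CD90.2+CD4- cells, 36 with neither, 16 with both and 4 with CD4 alone, and the untreated library 8, 17, 9 and 4 of these.

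KLRG1 was most frequent on CD90.2+CD4- members. It was on 54.4% of them (342 of 629), against 22.1% of members with neither protein, 16.2% of those with both and 11.8% of those with CD4 alone over all libraries pooled. Within each of the 8 libraries with at least 10 CD90.2+CD4- members, it was also more frequent on these than on members with neither protein or with both. Shares there were 28% to 74.8%, against 6.25% to 40.9% of members with neither and 2.82% to 36.7% of those with both. At week 4 it was on 3 of 9 members with CD4 alone (33.3%), against 4 of 13 CD90.2+CD4- members (30.8%). Untreated week 7, with 8 CD90.2+CD4- members, had another order: 12.5% of these, 29.4% with neither and 22.2% with both. Median KLRG1 counts followed these shares less closely. On members with both proteins and on CD90.2+CD4- members they were 5.5 and 4 at week 0, 1 and 1 at week 4, and 3 and 3 at week 6. In weeks 1, 2, 3 and 5 and in the treated library CD90.2+CD4- members had the higher median. KLRG1 was called by CLR, which the counts of CD4 and CD90.2 also enter. These are descriptions with no test. The 5 most common combinations of CD90.2, CD4, KLRG1 and CD103 all lacked CD103: CD90.2 with KLRG1 (301 cells), none of the 4 proteins (288), CD90.2 alone (278), CD90.2 with CD4 (211) and KLRG1 alone (78). The median CD90.2 count of CD90.2+CD4- members was 212 to 1028 in 8 libraries, against 268 to 898 in CD3-CD90.2+ cells that lacked CD11b and CD4. Their median CD11b count was 36 to 110, against 3 to 9 in those cells, and their median total was 502 to 1394 counts, against 531 to 1111. CD11b was above its limit on 2.92% to 9.46% of CD90.2+ cells without CD3 and the other myeloid markers, and on 0.933% to 12.3% of CD3+CD4+ T cells in the 8 libraries from week 1 on. The T cells were taken with or without the other myeloid markers, so these ranges come from unlike gates.

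Members with both CD90.2 and CD4 had the most counts per cell, in a total that contains these 2 proteins. Their median total was the highest of the 4 combinations in 9 of 9 libraries and was 1.11 to 4.19 times the median of all cells of the library, in groups of 9 to 71 cells. In the 8 libraries with at least 10 of them, median counts were 82 to 313.5 for CD4, against 144 to 276 on CD3+CD4+ T cells, and 424 to 2122.5 for CD90.2, against 371 to 1505 on those T cells. Their CD11b medians were 108 to 599.5 counts, against 302.5 to 770 on CD11b+Ly-6G+ cells. The ranges thus overlapped those of T cells for CD4 and CD90.2 and those of CD11b+Ly-6G+ cells for CD11b. They also overlapped those of CD3-CD90.2+ cells with CD4 and without CD11b, at 83 to 294 counts for CD4 and 346 to 1520.5 for CD90.2. At week 0, where 1 cell was a CD3+CD4+ T cell, 44 members carried both proteins. Their medians were 312.5 for CD4 and 2122.5 for CD90.2, against 294 and 1520.5 in the CD3-CD90.2+ cells with CD4. CD3 had medians of 7, 4, 15, 42, 26, 36 and 31 counts on them in untreated weeks 0 to 6, in order, and 30.5 in the treated week 7 library, against 36 to 70 on CD3+CD4+ T cells. From week 3 on they carried more CD3 counts than at weeks 0 to 2, with a CLR that stayed under the CD3 limit. CD11c medians on them were 14 to 61.5 counts, against 12 to 53 on CD11b+Ly-6G+ cells and 3 to 11 on CD3+CD4+ T cells. CD64 medians were 12 to 52 counts, against 22 to 117 on CD11b+Ly-6C+ cells and 2 to 9 on those T cells. Both antibodies were thus under their limits by CLR and not absent in counts. The part of droplets with more than 1 cell was not tested.

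Members with neither protein had the lowest median total in 5 of 9 libraries, at 0.196 to 0.632 times the library median. Their median CD11b counts were 22.5, 42, 70, 152, 116, 355 and 289 in untreated weeks 0 to 6, in order, and at week 7 297 in the treated library and 119 in the untreated library. Weeks 0 and 1 stood lowest, and there the whole cell held 213.5 and 159 counts at the median. Weeks 5, 6 and treated week 7 lay within the 167 to 498 counts of CD11b+Ly-6C+ cells. Their CD90.2 count was 14 to 121.5 and their Ly-6G count 2 to 39.5.

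**Figure D5:**
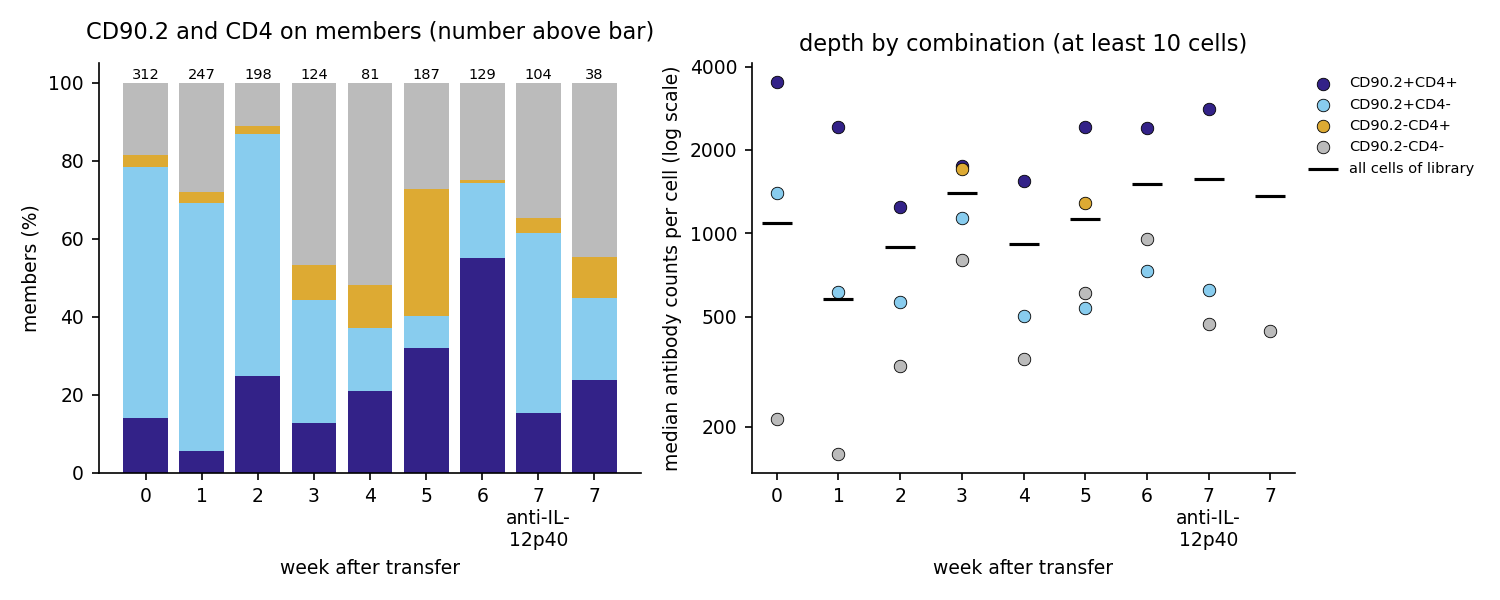
Left, percentage of members (vertical axis) in each combination of CD90.2 and CD4 by week (horizontal axis), with the number of members above each bar. Right, median antibody counts per cell on a log scale for combinations with at least 10 cells, with the median of all cells of the library as a line; members with both proteins lie highest in the 8 libraries where they are shown, at 1.11 to 4.19 times that line over all 9 libraries.

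Total counts and CD11b were also compared between members with and without CD90.2 and CD4, as a description with no test, because each total contains the antibody that makes the split and CD11b took part in the selection. CD90.2+ members had 2.62 times the total counts of CD90.2- members, but 1.23 times once the CD90.2 counts were left out, a calculation added after seeing the data. That ratio was above 1 in 6 of 8 libraries and ran from 0.594 in the treated week 7 library to 2.21 at week 0, so most of the difference in total was CD90.2 itself. The CD11b ratio was 0.939 (4 of 8 libraries higher), from 0.304 in the treated library, with medians of 89.5 and 297 counts, to 3.46 at week 0, with medians of 120 and 34 counts. Without the treated library the mean CD11b ratio was 1.10, on the other side of 1. CD4+ members had 2.76 times the total counts of CD4- members and 2.50 times without the CD4 counts, higher in 8 of 8 libraries either way. Their CD11b counts were 2.85 times as high. Every added CD4 count raises the CD11b count that the CLR limit asks for, and so does every added CD90.2 count. The part of this in either CD11b ratio was not tested.

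Since depth differed between libraries and subsets, the shares were also taken among the cells that were members after thinning to 242 counts. CD4 was then on 28.1% of 242 members at week 0, 25.6% of 82 at week 1, 93.0% of 100 at week 5 and 92.5% of 40 at week 6, and on 40.7% of 54 in the treated week 7 library, against 68.8% of 16 in the untreated one. CD90.2 was on 95.5%, 95.1%, 54.0% and 97.5% at weeks 0, 1, 5 and 6, and KLRG1 on 45.5%, 56.1%, 5.00% and 5.00%. In weeks 2, 3 and 4, with 21, 19 and 18 such members, CD4 was on 81.0%, 52.6% and 77.8%. At equal depth, weeks 5 and 6 again stood above weeks 0 and 1 for CD4 and below them for KLRG1, and no test was made on these smaller groups.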

How the data were processed

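The deposited tables hold counts of 11 antibody tags per cell barcode, in whole numbers, made by the authors from TotalSeq-stained lamina propria cells, per the labels' protocols, with no normalization. Cell Ranger 6.0.2, Seurat 4.1.1 and build mm10 are listed, without a role for each, in the submitters' processing notes. The sources used here do not give the selection of barcodes. Cells with fewer than 50 counts or above the 99th percentile of their library were dropped (130442 of 131917 barcodes stayed), and doublets were not called. Thresholds of antibodies outside the rule came from a 2-component Gaussian mixture on 2000 cells per library. Refitted thresholds of the rule's antibodies lay within 0.014 of the rule.

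Every other cell was placed in 1 of 9 further phenotypes. Trends used Spearman's correlation with week and exact permutation. Differences between phenotypes used exact sign-flip permutation over libraries with at least 50 cells in both; splits of members, at least 20 in both, are descriptive. All tests are two-sided, and p-values were adjusted by Benjamini-Hochberg over the whole table at 0.05. Intervals of shares are exact (Clopper-Pearson, 95%) and cover counting error only. All antibodies, every library's share, the CD90.2 and CD4 combinations and the 5 most common 4-protein combinations are named. Members, lists and tests were chosen with earlier results of these data known. Steps were tested on simulated data. Alternatives were thinning, thresholds per library, library scaling, count limits, gate widths, other scales and statistics, and leaving out each library. Mixtures were fitted with scikit-learn 1.9.0 and tests run with scipy 1.17.1 (numpy 2.4.6, Python 3.11.15); tables used pandas 2.3.3 and plots matplotlib 3.10.9.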

Additional observations from a re-analysis of the deposited data

How the results depend on the processing

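The main limit is the gate itself, since 1 pool stands for each week and the number of members ran from 406 to 3377 over the settings. The trend of the share of all cells did not pass under any of its 18 alternatives (-0.79 to 0), and neither did that among CD3- cells. The latter was -0.79 with counts scaled to the library median (adjusted exact permutation p = 0.0619) and -0.45 with the wider gate, and the cause was not tested. Library scaling left 133, 240 and 24 members in untreated weeks 0 to 2, and 0 or 1 in each later untreated week. The treated to untreated ratio was 0.287 with thresholds per library (3 treated and 10 untreated members), the cause not tested, 4.505 of CD11b+ cells, and 1.05 to 3.40 otherwise; library scaling left 0 untreated members and no ratio. The count of 13 called differences in unused antibodies was 0 of 15 with thinned cells (4 libraries), library scaling (2 libraries) and the stricter gate (3 libraries), which have too few libraries to pass, and 9 to 13 otherwise. Pearson's r gave 2 trends in place of 0. CD11b in CD90.2+ against CD90.2- members, -0.06 as a difference of ln counts, was -0.25 to 0.10 leaving out each library, positive only without the treated library, and 1.05 for the split by CD4. The same difference in total counts, 0.96, was 0.21 without the CD90.2 counts (added after seeing the data), as CD90.2 is part of the total. Both differences are descriptions with no test. Directions also turned for CD127 with week (0.37, thresholds per library) and CD103 with week (-0.024, wider gate). Against CD11b+Ly-6G+ cells they turned for CD4, CD127 and CD103 with library scaling (-3.83, -1.72 and -12.6 points), with ln(count + 1) (-0.082, -0.094 and -0.32) and with the CLR over unused antibodies (-0.21, -0.23 and -0.45), and for CD103 with the stricter gate (-0.24 points). Against CD11b+Ly-6C+ cells they turned for CD103 with library scaling (-6.48 points), ln(count + 1) (-0.12) and the CLR over unused antibodies (-0.64), and for CD127 with the last (-0.30). The cause of these turns was not tested. No paired analysis was possible because weeks and treatments have 1 library each, so replicate numbers pair none of them; comparisons of cell groups were made within libraries.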
